A study of Mus musculus with 6 samples.

Results

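The ATP-binding cassette (ABC) family is the set of proteins that use a shared ATP-binding fold to move drugs, lipids, metabolites and metal cofactors across membranes, together with a few relatives that have no membrane part and act on the ribosome. Its members were taken as every row of the count table whose Ensembl ID maps, in the GENCODE M21 mouse annotation, to a symbol that starts with Abca, Abcb, Abcc, Abcd, Abce, Abcf or Abcg followed by a digit. This gave 50 genes of 35932 in the table, all of them protein coding, and 0 pseudogenes had to be left out. Of the 50, 31 had enough counts to be tested, 11 had counts too low to be tested and 8 had no count in any library. RNA sequencing covered 6 libraries of mouse bone marrow blasts, labelled as myeloid leukemic blasts of the genotype MLL-AF9+, a fusion oncogene that drives acute myeloid leukemia. The 3 resistant libraries came from blasts labelled chemotherapy resistant and treated with cytarabine and doxorubicin, and the 3 sensitive libraries from blasts labelled chemotherapy sensitive and treated with vehicle. Resistance and drug exposure therefore cannot be told apart. Strain, age, dose, time of harvest and whether replicates were separate mice are not stated, so p-values reflect how far these 6 libraries scatter, and that scatter may be technical.

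ABC transporters bind ATP at a pair of nucleotide-binding folds, and the energy of its hydrolysis turns a membrane part from an inward-facing to an outward-facing shape. Full transporters carry both folds in one chain, whereas smaller ones carry a single fold and work as dimers. In leukemia the family is best known for P-glycoprotein (Abcb1a and Abcb1b in the mouse), which can pump anthracyclines such as doxorubicin out of cells. The multidrug resistance proteins of the Abcc subfamily and the breast cancer resistance protein Abcg2 are also studied as drug pumps. Abcc4 and Abcc5 export nucleotide monophosphates and are studied for the products of nucleoside analogs such as cytarabine.

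Totals ranged from 22206341 to 31856009 counts per library, and a count of 3, used as the floor of detection, corresponded to 0.0945 to 0.137 CPM (counts scaled to library depth, with TMM factors that set libraries on a common footing). The floor covers counting error only. The 9 myeloid markers were all detected and summed to 2543 to 3039 CPM in resistant and 3084 to 3502 CPM in sensitive libraries, with 1 higher (Cd33) and 4 lower (Itgam, Kit, Csf1r and Fcgr3). Markers of other cells also moved with the groups. The 11 erythroid markers in the table summed to 2.08 to 3.73 CPM in resistant and 48.1 to 83.8 CPM in sensitive libraries, with 0 of 8 tested higher and 6 lower. The 10 neutrophil markers summed to 35.1 to 55.5 CPM in resistant and 213 to 255 CPM in sensitive libraries, with 0 higher and 9 lower. The 7 mast cell, basophil and eosinophil markers summed to 254 to 346 CPM in resistant and 96.4 to 127 CPM in sensitive libraries, with 1 of 6 tested higher (Prg2) and 3 lower. The 8 macrophage markers summed to 346 to 437 CPM in resistant and 277 to 313 CPM in sensitive libraries, mostly through Vcam1 and Adgre1. Of the 6 tested, 1 was higher (Vcam1) and 0 lower, and Adgre1 did not pass. C1qa, C1qb, C1qc and Mertk each averaged under 1 CPM in both groups. The 7 stem cell markers summed to 755 to 773 CPM in resistant and 577 to 697 CPM in sensitive libraries, with 1 of 3 tested higher (Cd34) and 1 lower (Ly6a). The 6 megakaryocyte markers summed to 8.39 to 9.55 CPM in resistant and 12.6 to 13.3 CPM in sensitive libraries. Of the 3 tested, 0 were higher and 1 lower. The 7 T cell markers summed to 3.72 to 4.92 CPM in resistant and 5.40 to 7.18 CPM in sensitive libraries. Of the 2 tested, 0 were higher and 1 lower (Cd8a). That sum was mostly Cd8a and Lck, while Cd3e, Cd3g and Trac had 2, 1 and 1 counts over all 6 libraries. The sums of the B cell, NK, and stroma and endothelium lists overlapped between the groups. The part of these cells in the ABC results was not tested, and in bulk RNA fewer cells of a type and less RNA per cell cannot be told apart.

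Abcg2 was the member that rose most, so the windows around its annotated starts are shown. The deposited counts are per gene and sum over all of them. RefSeq lists 3 starts on the plus strand of chromosome 6, of which the second lies 12139 bases after the first and the third 43874 bases after the second. Each window runs from 250 bases before a start to 50 after it in GRCm38.p6, a later build than the one used by the authors, at chr6:58584283-58584582, chr6:58596422-58596721 and chr6:58640296-58640595. Capitals mark matches, on either strand, to the GC box GGGCGG or to the TATA motif TATAAA.
Abcg2 start 1: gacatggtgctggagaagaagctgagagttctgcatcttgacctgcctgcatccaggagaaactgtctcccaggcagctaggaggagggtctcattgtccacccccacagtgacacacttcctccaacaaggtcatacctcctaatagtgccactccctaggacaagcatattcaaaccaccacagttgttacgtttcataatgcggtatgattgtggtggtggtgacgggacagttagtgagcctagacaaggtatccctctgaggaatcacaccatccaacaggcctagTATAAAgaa
Abcg2 start 2: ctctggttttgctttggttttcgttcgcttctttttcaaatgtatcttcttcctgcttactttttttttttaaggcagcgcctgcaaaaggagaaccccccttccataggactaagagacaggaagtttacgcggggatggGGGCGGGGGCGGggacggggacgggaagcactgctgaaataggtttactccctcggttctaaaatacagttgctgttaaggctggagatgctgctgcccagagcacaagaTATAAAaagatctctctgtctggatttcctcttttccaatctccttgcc
Abcg2 start 3: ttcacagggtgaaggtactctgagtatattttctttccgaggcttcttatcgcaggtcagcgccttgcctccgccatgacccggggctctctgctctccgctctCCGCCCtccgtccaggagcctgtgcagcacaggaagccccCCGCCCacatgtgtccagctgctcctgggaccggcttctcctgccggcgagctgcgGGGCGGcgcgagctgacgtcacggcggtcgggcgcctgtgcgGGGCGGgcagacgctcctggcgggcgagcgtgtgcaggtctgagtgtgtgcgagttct
The third window was the richest in CpG, with 28 CpG pairs, 67% G and C and 4 GC boxes, against 3 CpG pairs and 0 GC boxes at the first and 10 CpG pairs and 2 GC boxes at the second. A TATAAA match stood in the first and second windows, each within the 50 bases after the start. Of all 32851 mouse windows of this length, 13.6% held TATAAA and 35.7% a GC box. CACGTG and a direct repeat of TGACCT with 4 bases between the copies, searched on both strands, had 0 matches in the 3 windows. These are matches of letters and say nothing of use, and the gene counts do not show which start was used.

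Of the 31 members tested, 10 were higher and 7 lower in resistant than in sensitive blasts at an adjusted p under 0.05 (edgeR quasi-likelihood test, Benjamini-Hochberg adjustment over 13414 genes), and 14 did not pass. Among all genes tested 18.5% were higher and 20.8% lower, so 39.2% were called, against 54.8% of the ABC members tested. The tested members were also more abundant, with a median of 57.4 CPM against 26.8 CPM for all genes tested, and the part of abundance in that share was not tested. Most changes were small, with 12 of the 17 called members changed by less than 1.5-fold. The median size of the log2 fold change was 0.21 for tested members and 0.22 for all genes tested, and the signed medians were 0.02 and -0.01. Past 2-fold stood 4 members, Abcg2 higher and Abcg1, Abcc8 and Abcd2 lower, which is 12.9% of those tested against 7.79% of all genes (3.05% higher and 4.74% lower). The libraries of the groups did not overlap in 21 of 31 members (67.7%), against 52.4% of all genes. The count of higher members was 6 without sensitive library 2. In that fit 1641 of 13781 genes tested were higher, against 2475 of 13414 with all 6 libraries.

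**Figure D1:**
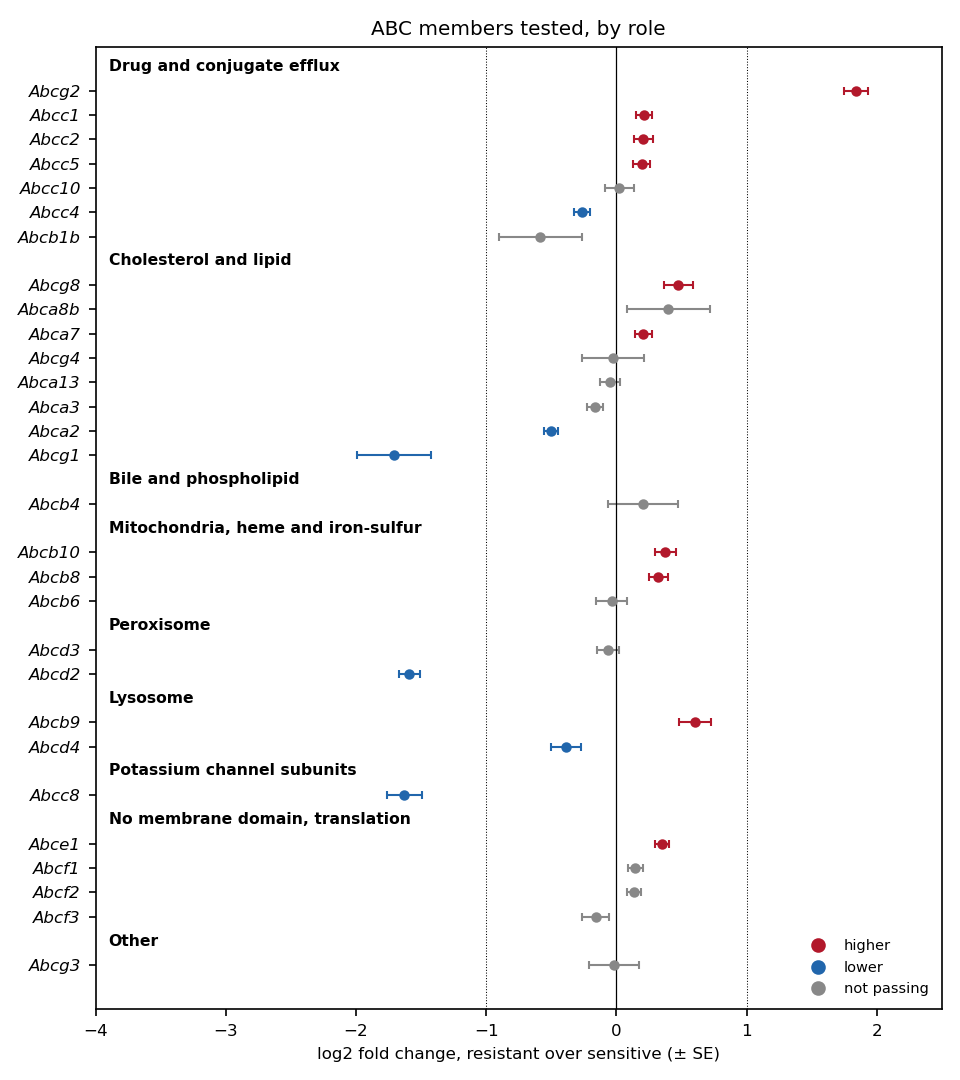
Log2 fold change (resistant over sensitive, ± SE from edgeR) of 29 of the 31 ABC members tested, grouped by role, with colour for the call at an adjusted p under 0.05 and dotted lines at a 2-fold change. Abcg2 lies far to the right at 1.84, and Abcg1, Abcc8 and Abcd2 far to the left, while the other called members lie within the dotted lines.

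Among the efflux pumps of drugs and conjugates, Abcg2 rose by far the most, Abcc1, Abcc2 and Abcc5 rose slightly and Abcc4 fell slightly. Of the 7 pumps tested, 4 passed as higher and 1 as lower, leaving 2 that did not pass. Among all genes tested 18.5% were higher and 20.8% lower. Another 4 pumps were too low to test. Abcg2, a broad-specificity pump of drugs, porphyrins and urate, had 30.3, 28.03 and 28.7 CPM in resistant libraries, against 8.46, 7.41 and 8.40 CPM in sensitive ones. All 3 resistant libraries thus lay well above all 3 sensitive ones, and the values within each group were close. The log2 fold change was 1.84 ± 0.09 (SE), a 3.58-fold rise (edgeR adjusted p = 2.98e-07), and it passed under all 14 alternative analyses with an adjusted p of at most 9.36e-06. Abcg2 is also expressed in erythroid cells and in hematopoietic stem cells. In the same libraries erythroid markers were lower in resistant blasts and the summed stem cell markers, almost all of it Cd34, were higher, and their part in the Abcg2 rise was not tested.

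Abcc1, a pump of glutathione conjugates and anthracyclines, had 95.9, 98.8 and 89.7 CPM in resistant libraries, against 82.8, 79.4 and 83.4 CPM in sensitive ones. The groups did not overlap, but the step was small, at 0.21 ± 0.06 on the log2 scale (edgeR adjusted p = 0.0149). Without sensitive library 2 it did not pass (0.0812). Abcc2, an exporter of conjugates best known from the bile canaliculus of the liver, had 71.1, 61.1 and 72.3 CPM in resistant libraries, against 61.0, 58.0 and 58.2 CPM in sensitive ones. Resistant library 2 stood next to the highest sensitive library, and the log2 fold change of 0.21 ± 0.07 was close to the threshold (edgeR adjusted p = 0.0447). It was lost under 6 of 14 alternatives, among them 5 of the 6 fits that left out a library, with an adjusted p of up to 0.147.

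Abcc5 and Abcc4, both exporters of cyclic nucleotides and nucleotide analogs, went opposite ways. Abcc5 had 75.8, 71.2 and 69.4 CPM in resistant libraries, against 65.5, 60.2 and 63.7 CPM in sensitive ones, and its rise of 0.19 ± 0.06 (edgeR adjusted p = 0.031) was lost under 4 alternatives, without resistant library 1, sensitive library 2 or sensitive library 3 and with library totals alone, with an adjusted p of up to 0.153. Abcc4 had 51.5, 51.2 and 53.5 CPM in resistant libraries, against 65.5, 59.5 and 62.9 CPM in sensitive ones. The resistant values were tightly grouped below all sensitive ones, and the fall of 0.27 on the log2 scale (SE 0.06, edgeR adjusted p = 0.00717) held under all 14 alternatives.

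The remaining pumps gave no call. Abcc10, which can carry nucleoside analogs and taxanes, had 13.4, 14.7 and 12.3 CPM in resistant libraries, against 11.8, 13.4 and 14.5 CPM in sensitive ones, and these ranges lay over each other (log2 fold change 0.02 ± 0.11, edgeR adjusted p = 0.895). Abcb1b, one of the P-glycoprotein genes, stayed near 1 CPM, with 0.819, 0.865 and 0.624 CPM in resistant libraries, against 1.62, 1.02 and 0.834 CPM in sensitive ones (-0.59 ± 0.32, edgeR adjusted p = 0.171). Its twin Abcb1a had 0 counts in all 6 libraries, which limits it to the floor given above. Of the 50-base words of the annotated Abcb1a transcripts, 16.3% also occur in Abcb1b, and how the authors counted reads that fit both is not given, but most of the Abcb1a sequence is its own. Abcc3, a basolateral exporter of glucuronides, had only 4, 2 and 2 counts in resistant libraries, against 8, 7 and 9 counts in sensitive ones, and was not tested. Abcc12 had 1 count in the whole table and Abcc6 had 0.

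**Figure D2:**
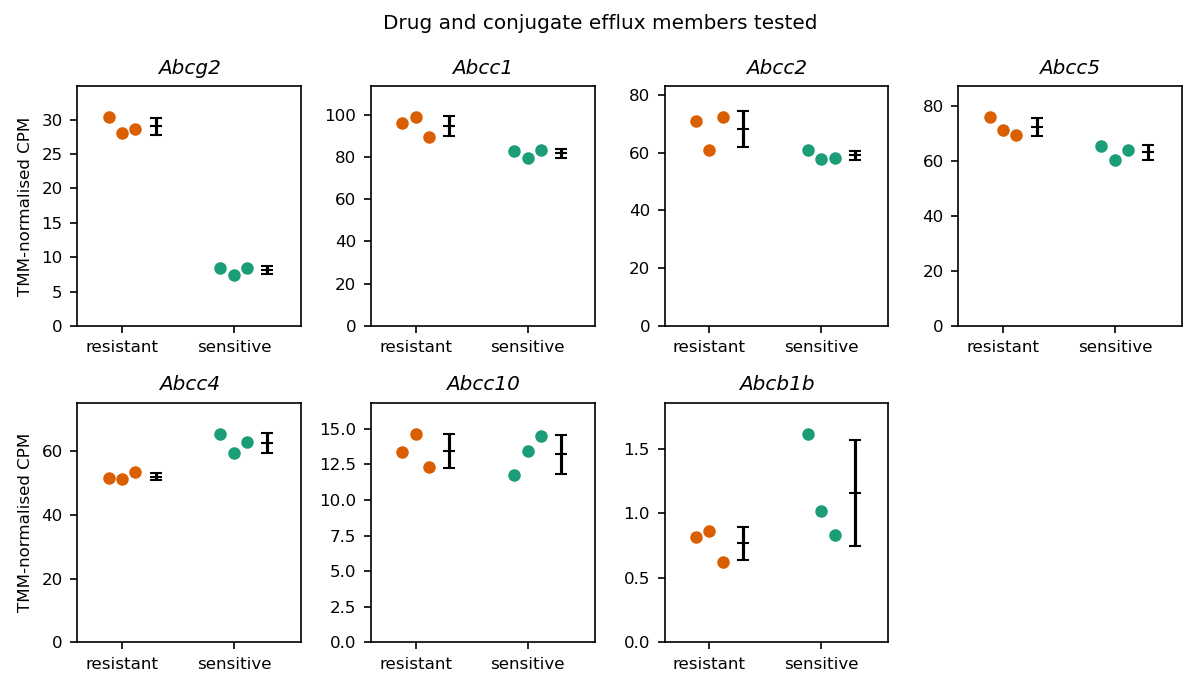
TMM-normalised CPM of the 7 tested efflux pumps in each library, resistant left and sensitive right, with the mean ± SD (n = 3) beside the points and each axis starting at 0. The groups are far apart for Abcg2, narrowly apart for Abcc1, Abcc2, Abcc5 and Abcc4, and lie over each other for Abcc10 and Abcb1b.

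Divided by merged exon length, so that genes can be compared, Abcg2 mRNA stayed below that of Abcc4, Abcc2, Abcc5 and Abcc1. Its level was 3.56 ± 0.15 CPM per kb in resistant and 0.993 ± 0.072 CPM per kb in sensitive blasts (SD, n = 3 each). In resistant blasts Abcc4 (8.15), Abcc2 (7.99), Abcc5 (6.76) and Abcc1 (6.28 CPM per kb) each stood above it. Their order depends on the length used, since by the longest transcript Abcc1 (13.96), Abcc5 (12.4), Abcc4 (9.12) and Abcc2 (8.49 CPM per kb) came in that order, all still above Abcg2 (5.08 CPM per kb). By merged exons Abcg2 made up 10.1% to 10.4% of the summed level per length of the 11 efflux pumps in resistant libraries, against 3.03% to 3.28% in sensitive ones. Abcc4 made up 22.6% to 24.1% in resistant libraries, against 31.0% to 32.01% in sensitive ones. By longest transcript these shares were 9.56% to 9.998% in resistant and 2.96% to 3.20% in sensitive libraries for Abcg2, and 17.0% to 18.3% in resistant and 23.8% to 24.6% in sensitive libraries for Abcc4. The shares of Abcc1, Abcc2 and Abcc5 overlapped between the groups by either length. Abcc10, by merged exons, stood below Abcg2 in resistant blasts (1.96 CPM per kb) and above it in sensitive ones (1.93 CPM per kb). These are mRNA levels, and protein was not measured.

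Of the 8 tested exporters of cholesterol and phospholipid, 2 were higher, 2 lower and 4 did not pass. Over all genes tested 18.5% were higher and 20.8% lower. The strongest change among these exporters was in Abcg1, which passes cholesterol from macrophages and other cells to high-density lipoprotein. It had 4.32, 9.24 and 3.16 CPM in resistant libraries, against 17.4, 18.8 and 17.4 CPM in sensitive ones. Resistant library 2 stood above the other resistant libraries but under all sensitive ones. The log2 fold change was -1.71 ± 0.28, or 3.26-fold lower in resistant blasts (edgeR adjusted p = 0.00104), and -2.24 without resistant library 2. Abca1, which starts cholesterol efflux by loading lipid onto apolipoprotein A-I, had only 1, 6 and 1 counts in resistant libraries, against 3, 8 and 10 counts in sensitive ones, and was not tested.

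Abca2, a lysosomal and endosomal sterol transporter, fell. It had 114, 126 and 118 CPM in resistant libraries, against 168, 169 and 171 CPM in sensitive ones. The sensitive values were nearly identical and the log2 fold change was -0.51 ± 0.05 (edgeR adjusted p = 5.28e-05). Abca7, a phospholipid exporter that also acts in phagocytosis, rose by 0.20 ± 0.07, with 213, 233 and 227 CPM in resistant libraries, against 179, 199 and 207 CPM in sensitive ones (edgeR adjusted p = 0.0299). That rise was lost under 5 alternatives, without resistant library 2 or 3, sensitive library 1 or 2, and with library totals alone (adjusted p up to 0.104). Abca3, the surfactant lipid transporter of the lung, averaged 60.9 ± 2.9 CPM in resistant and 68.2 ± 2.5 CPM in sensitive blasts (edgeR adjusted p = 0.059), and passed with library totals alone and without resistant library 2 (lowest adjusted p 0.0301). The very long gene Abca13 averaged 144 ± 15 CPM in resistant and 149 ± 8 CPM in sensitive blasts (edgeR adjusted p = 0.641), and Abcg4 and Abca8b stayed near 1 CPM.

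Abcg8, which normally pairs with Abcg5 to export sterols from liver and gut, was read without its partner. Abcg8 had 13.6, 13.6 and 12.8 CPM in resistant libraries, against 8.81, 8.94 and 10.9 CPM in sensitive ones, a rise of 0.48 ± 0.11 on the log2 scale (edgeR adjusted p = 0.00703) that held under all 14 alternatives. Abcg5 had 2 counts in each resistant library and 0 in each sensitive one, at or under the floor, so no fold is given. The genes lie head to head on chromosome 17 and their merged exons overlap on opposite strands by 82 bases. RefSeq gives Abcg8 a pair of starts 6819 bases apart on the plus strand, at chr17:84676052-84676351 and chr17:84682871-84683170 (GRCm38.p6). They are shown because the second window shares 209 bases with the window of Abcg5 and the first lies apart from it. Capitals mark TATAAA read on either strand.
Abcg8 start 1: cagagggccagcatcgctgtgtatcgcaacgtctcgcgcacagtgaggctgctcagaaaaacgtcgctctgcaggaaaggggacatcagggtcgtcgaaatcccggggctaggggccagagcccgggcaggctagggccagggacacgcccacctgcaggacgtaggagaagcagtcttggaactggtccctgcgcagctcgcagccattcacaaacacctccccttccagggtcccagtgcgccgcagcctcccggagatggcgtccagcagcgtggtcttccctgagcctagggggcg
Abcg8 start 2: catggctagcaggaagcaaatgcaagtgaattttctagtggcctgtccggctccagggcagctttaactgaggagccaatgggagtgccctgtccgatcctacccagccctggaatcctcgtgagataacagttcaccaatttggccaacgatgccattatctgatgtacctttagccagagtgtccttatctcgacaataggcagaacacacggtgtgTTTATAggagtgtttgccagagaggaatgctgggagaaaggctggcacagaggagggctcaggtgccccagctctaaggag
The first window held 21 CpG pairs and no TATAAA, and the second 6 CpG pairs and 1 TATAAA match on the opposite strand. The gene counts do not tell which start gave the Abcg8 reads, and the strand setting of the counting is not given.

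**Figure D3:**
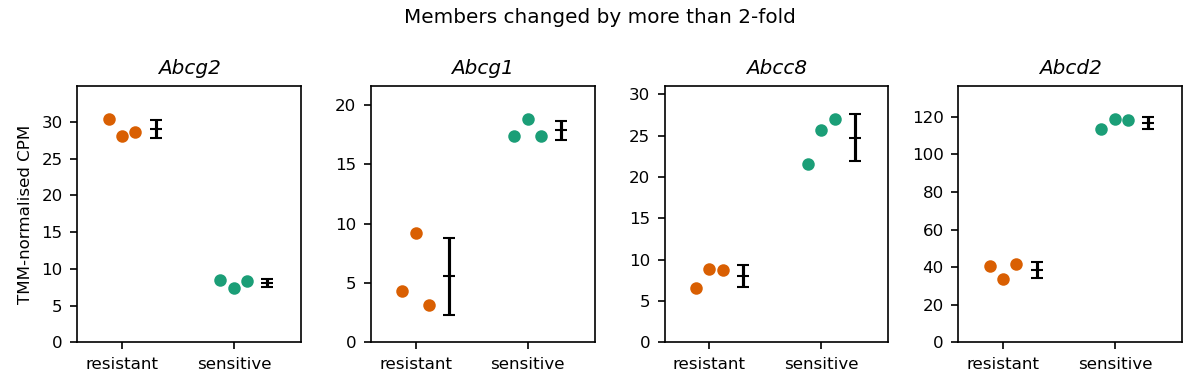
TMM-normalised CPM of the 4 members changed by more than 2-fold, resistant left and sensitive right, with the mean ± SD (n = 3) beside the points and each axis starting at 0. Abcg2 is higher in every resistant library, Abcg1, Abcc8 and Abcd2 are lower in every one, and Abcg1 spreads most within the resistant group, from 3.16 to 9.24 CPM.

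Peroxisomal transporters were lower or did not pass. These proteins load very long chain and branched fatty acids into peroxisomes for shortening. Abcd2 had 40.7, 33.7 and 41.6 CPM in resistant libraries, against 113, 119 and 118 CPM in sensitive ones, so that the groups were far apart. Its log2 fold change was -1.59 ± 0.08, or 3.01-fold lower in resistant blasts (edgeR adjusted p = 2.9e-07, at most 1.01e-05 under the alternatives). Abcd3, the most general of the peroxisomal carriers, averaged 37.4 ± 2.8 CPM in resistant and 39.2 ± 3.3 CPM in sensitive blasts (edgeR adjusted p = 0.561). Per length, Abcd2 was at 6.50 ± 0.73 CPM per kb in resistant and 19.6 ± 0.5 CPM per kb in sensitive blasts (SD, n = 3 each). The part of neutrophil and erythroid markers, which fell in the same libraries, was not tested.

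Abcc8, the sulfonylurea receptor that regulates ATP-sensitive potassium channels and is best known from the insulin-secreting cell, also fell. It had 6.55, 8.83 and 8.70 CPM in resistant libraries, against 21.5, 25.7 and 26.9 CPM in sensitive ones. No value of one group came near the other, and the log2 fold change was -1.63 ± 0.13, or 3.10-fold lower in resistant blasts (edgeR adjusted p = 9.08e-06). Its relative Abcc9 had 11 counts over the 3 resistant and 5 counts over the 3 sensitive libraries and was not tested.

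Of the 4 mitochondrial members, which serve heme synthesis and iron-sulfur export, 2 were higher, 0 lower and 2 did not pass. The shares over all genes tested were 18.5% higher and 20.8% lower. Abcb10, an inner membrane protein needed for hemoglobin formation in erythroid cells, had 100.1, 94.7 and 81.3 CPM in resistant libraries, against 68.7, 67.8 and 76.1 CPM in sensitive ones. Resistant library 3 came nearest to the sensitive range, and the rise was 0.38 ± 0.08 on the log2 scale (edgeR adjusted p = 0.00474). The 11 globin genes of the table summed to 0.126 to 1.32 CPM in resistant and 42.2 to 73.2 CPM in sensitive libraries, opposite to Abcb10. Abcb8, a mitochondrial protein of iron export and of the mitochondrial potassium channel, had 65.7, 68.1 and 73.5 CPM in resistant libraries, against 51.4, 54.4 and 59.9 CPM in sensitive ones (0.32 ± 0.07, edgeR adjusted p = 0.0063). Both calls held under all 14 alternatives. Abcb6, a porphyrin transporter, averaged 13.9 ± 2.1 CPM in resistant and 14.2 ± 0.7 CPM in sensitive blasts (edgeR adjusted p = 0.824), with the limit that 50% of its 50-base words also belong to the overlapping transcript Gm29253.

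The lysosomal members went opposite ways. Abcb9, a lysosomal peptide transporter related to the TAP proteins of antigen presentation, had 41.9, 46.3 and 43.3 CPM in resistant libraries, against 22.8, 30.2 and 33.6 CPM in sensitive ones. The groups did not overlap although sensitive library 1 stood lower than the others, and the rise was 0.60 ± 0.12 (edgeR adjusted p = 0.00314). Abcd4, which helps release vitamin B12 from lysosomes, had 7.85, 8.28 and 10.1 CPM in resistant libraries, against 11.3, 11.3 and 11.6 CPM in sensitive ones. Its change of -0.39 ± 0.12 (edgeR adjusted p = 0.0231) was lost in 5 of the 6 fits that left out a library, all but the one without resistant library 3, with an adjusted p of up to 0.0739.

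Of the members without a membrane part, Abce1, Abcf1 and Abcf2 were the most abundant of the family per length. Abce1, which splits ribosomes after termination, had 355, 341 and 342 CPM in resistant libraries, against 287, 268 and 258 CPM in sensitive ones. All resistant libraries were above all sensitive ones, and the rise of 0.35 ± 0.06 (edgeR adjusted p = 0.000693) held under all 14 alternatives. Abcf1 (0.15 ± 0.06, edgeR adjusted p = 0.0608) and Abcf2 (0.14 ± 0.06, edgeR adjusted p = 0.0727), relatives of a yeast factor that works with the kinase GCN2, did not pass although their groups did not overlap. Abcf1 passed under 4 alternatives, among them DESeq2, with a lowest adjusted p of 0.0204 and a highest of 0.219, and Abcf2 passed without sensitive library 1 (0.0414). Abcf3 averaged 41.4 ± 6.8 CPM in resistant and 46.3 ± 0.9 CPM in sensitive blasts (edgeR adjusted p = 0.248). Abcf2 (59.6 ± 0.8 and 54.2 ± 2.8 CPM per kb in resistant and sensitive blasts), Abce1 (57.6 ± 1.3 and 45.1 ± 2.5) and Abcf1 (46.0 ± 2.4 and 41.6 ± 1.1) held the first 3 places of the family in each group. These 4 genes made up 46.0% to 46.5% of the summed level per length of the family in resistant libraries, against 41.5% to 43.7% in sensitive ones.

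**Figure D4:**
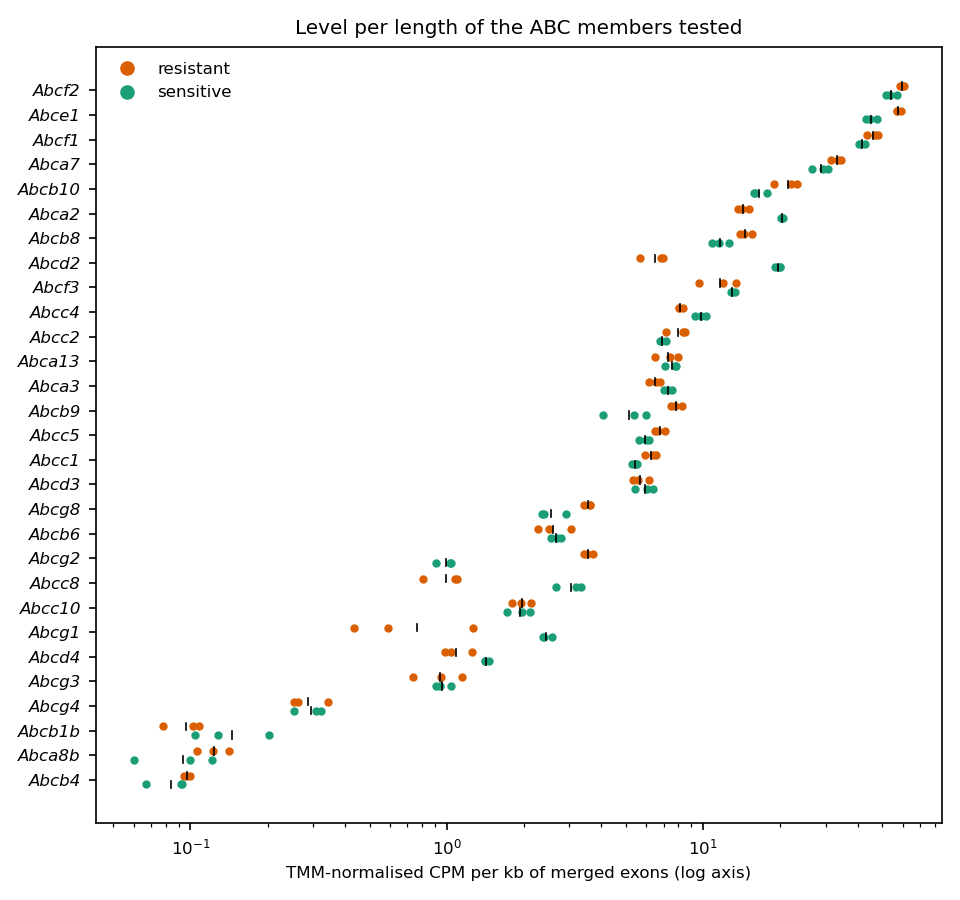
Level per length (TMM-normalised CPM per kb of merged exons, log axis) of 29 of the 31 ABC members tested, in order of their mean over 6 libraries, with 1 point per library, resistant above sensitive, and a black tick at each group mean. Group means run from about 0.1 to 60 CPM per kb, Abcd2, Abcc8 and Abcg1 are shifted left in resistant libraries and Abcg2 is shifted right.

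Summed over the family, levels did not overlap but lay close, at 2135 to 2207 CPM in resistant and 2094 to 2125 CPM in sensitive libraries, or 0.213% to 0.221% of the library in resistant and 0.209% to 0.213% in sensitive blasts. Within that sum, Abcg2 stood at place 20 of the family in resistant blasts and place 26 in sensitive blasts when ordered by level per length. Abcd2 stood at place 16 in resistant and place 7 in sensitive blasts, and Abcc8 at place 25 in resistant and place 20 in sensitive blasts. Abcb9 stood at place 13 in resistant and place 19 in sensitive blasts. Peroxisomal members made up 8.57% to 8.67% of the summed level per length in resistant libraries, against 13.2% to 13.7% in sensitive ones.

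The fold that binds ATP also divided the members, mostly along their subfamilies, with only Abcb holding members of both the 1-motif and the 2-motif kind. The Walker A motif, the phosphate-binding loop of that fold, was counted in the longest reading frame of each gene. An exact match to its consensus was found 2 times in 35 members, 1 time in 13 and 0 times in Abcg3 and Abcg8. Of the single-motif members, 12 of 13 were tested, and 4 were higher, 4 lower and 4 did not pass. Of the members with 2 motifs, 17 of 35 were tested, and 5 were higher, 3 lower and 9 did not pass. Of Abcg3 and Abcg8, 1 was higher (Abcg8) and 1 did not pass. Among all genes tested 39.2% were called. Abcg2, Abcg1 and Abcd2 are of the single-motif kind, whose chains work as dimers, and Abcc8 has 2. The groups are small and the difference between them was not tested.

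Of ABC proteins with other symbols, Cftr, the chloride channel of cystic fibrosis, had 31.96, 35.2 and 31.8 CPM in resistant libraries, against 10.5, 16.4 and 17.4 CPM in sensitive ones. This was a 2.24-fold rise (1.16 ± 0.16, edgeR adjusted p = 0.000257). Tap1, a peptide pump of the MHC class I pathway, had overlapping groups (76.6, 92.2 and 85.7 CPM in resistant, 103, 101 and 91.9 CPM in sensitive libraries) and a change of -0.21 ± 0.08 (edgeR adjusted p = 0.0427), lost under 4 alternatives that each left out a library (all but those without resistant library 2 or sensitive library 3, adjusted p up to 0.139), and Tap2 did not pass (edgeR adjusted p = 0.366). The 6 peptide loading genes gave 0 higher and 0 lower in edgeR, also at an unadjusted p under 0.05, and 0 with DESeq2 or limma-voom.

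Partner genes were counted by list, with no test of a list, beside 18.5% higher and 20.8% lower among all genes tested. Of 17 tested genes of sterol sensing and efflux, 2 were higher (11.8%), 7 lower (41.2%) and 8 did not pass, with a median log2 fold change of -0.24. Mylip, a sterol-induced ligase that degrades the LDL receptor, fell by 0.80 ± 0.12, and Npc1, the lysosomal cholesterol exporter, fell by 0.32 ± 0.08 (edgeR adjusted p = 0.000606 and 0.0119). Apoe, an acceptor of exported cholesterol, rose by 0.83 ± 0.14, and Scarb1, a receptor of high-density lipoprotein, rose by 0.22 ± 0.06 (edgeR adjusted p = 0.00125 and 0.0142). The calls of Npc1 and Scarb1 were lost without sensitive library 1 (edgeR adjusted p = 0.0513 and 0.0581), and that of Scarb1 also without sensitive library 2 (0.0601). Of 14 tested regulators of ABC genes, 2 were higher (14.3%) and 5 lower (35.7%). The pregnane X receptor gene Nr1i2, an inducer of drug pumps, rose by 0.57 ± 0.14, while Hif1a fell by 0.46 ± 0.08 and Nfe2l2 by 0.44 ± 0.10. Epas1 had a change of -2.31 ± 0.24, with 0.683 CPM in resistant and 3.40 CPM in sensitive blasts.

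The partner lists of the organelle transporters and of Abce1 were counted in the same way, with no test that ties a list to its members. Of 23 tested peroxisome genes, 2 were higher (8.70%), 8 lower (34.8%) and 13 did not pass, and DESeq2 called 5 lower. The branched-chain acyl-CoA oxidase gene Acox3 (-0.60 ± 0.07) and the assembly genes Pex10 (-0.75 ± 0.13) and Pex26 (-0.82 ± 0.13) fell (edgeR adjusted p at most 0.00136). Of 22 heme and iron-sulfur partners, 3 were higher (13.6%), 5 lower (22.7%) and 14 did not pass, near the shares over all genes in the lower direction. Alas1, the first enzyme gene of heme synthesis, averaged 230 ± 61 CPM in resistant and 371 ± 7 CPM in sensitive blasts, and Ppox fell by 0.52 ± 0.12. The erythroid Alas2 averaged 0.0517 CPM in resistant and 1.31 CPM in sensitive blasts, and the chaperone gene Hspa9 rose by 0.34 ± 0.05. Of 15 tested partners of ribosome recycling and GCN2, 6 were higher (40.0%) and 2 lower (13.3%). The initiation factor genes Eif2s3x (0.37 ± 0.06), Eif2s2 (0.33 ± 0.06) and Denr (0.32 ± 0.06) rose, and Pelo, the rescue factor that hands stalled ribosomes to Abce1, fell by 0.58 ± 0.11. Of 13 tested glutathione genes, 2 were higher (15.4%) and 1 lower (7.69%), with Gsto1 at 0.50 ± 0.06, Gclc at 0.27 ± 0.07 and the reductase gene Gsr at -0.54 ± 0.06. Of the 7 lysosomal B12 partners, 0 were higher and 0 lower in edgeR, DESeq2 and limma-voom, and 1 was higher at an unadjusted p under 0.05.

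**Figure D5:**
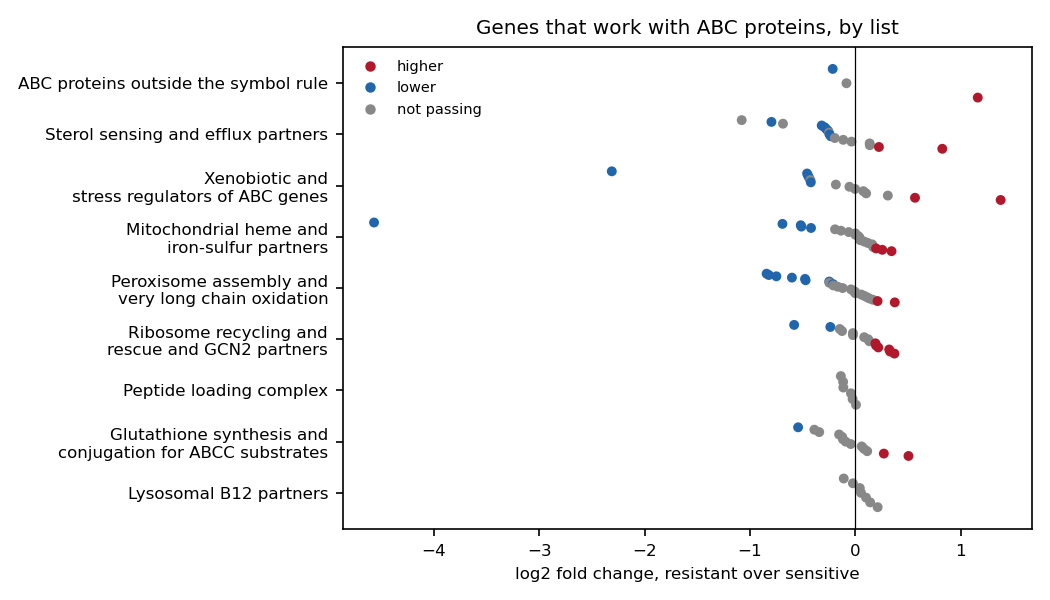
Log2 fold change (resistant over sensitive) of every tested gene of the 9 lists that work with ABC proteins, with 1 point per gene and colour for the edgeR call at an adjusted p under 0.05. Lower calls outnumber higher ones in the sterol (7 of 17 lower), regulator (5 of 14) and peroxisome (8 of 23) lists. Higher calls outnumber lower ones in the ribosome recycling list (6 of 15 higher). In the heme (5 of 22 lower) and glutathione (2 of 13 higher) lists, the counts are near or under the shares among all genes. Those shares are 20.8% lower and 18.5% higher.

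Of the 19 members that were not tested, Abca12, Abca15, Abca16, Abca8a, Abcb11, Abcb1a, Abcb5 and Abcc6 had 0 counts. The other 11 had between 1 (Abcc12) and 32 (Abcc3) counts in all 6 libraries together. Among them Abca5 had 1 count in each resistant library, against 5, 4 and 6 counts in sensitive ones, and Abca14 had 3, 7 and 9 counts in resistant libraries, against 3 in each sensitive one. Abca4, Abca6, Abca9 and Abca17 were under 21 counts in sum. The tested Abcb4, a phospholipid exporter of bile, stayed under 1 CPM (edgeR adjusted p = 0.581) and Abcg3, a mouse member of unknown substrate, averaged 3.35 ± 0.73 CPM in resistant and 3.41 ± 0.25 CPM in sensitive blasts (edgeR adjusted p = 0.95).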

How the data were processed

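The authors deposited whole-number counts per Ensembl gene and nothing in them points to scaling. Per the submitters' processing notes, TopHat2, RSEM and mm9 were used; which did what is not recorded there. Annotation release, strand setting and handling of shared reads: not given in the sources used here. Genes that overlap or have close copies are therefore uncertain. All 6 columns matched 1 sample each by title, and 31636 of 35932 IDs matched GENCODE M21, which served for names, chromosomes, exon lengths and transcript words.

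After filterByExpr, TMM scaling and a model with group alone, 13414 genes were tested by quasi-likelihood in edgeR 4.0.16 (R 4.3.3), with Benjamini-Hochberg adjustment and a threshold of 0.05. SE is the log2 fold change divided by the square root of F. The edgeR step was also run on counts simulated from its fit to these data. Within a group, pairs of libraries gave 3.91 to 13.6 as chi-square divided by its degrees of freedom (genes averaging 20 counts or more), so none was a copy of another. Promoter windows come from RefSeq GRCm38.p6, matched by symbol for 38 of 50 members; protein sequences were not used, and Walker A matches were counted in translated GENCODE transcripts.

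Members and lists were chosen with earlier results of these data known. A few genes, 2 members among them, are counted but not reported here by name. Other members could be named; partner genes were the 4 with the smallest adjusted p per list, besides Cftr, Tap1 and Tap2. Alternatives were other scalings, filters, DESeq2 1.42.0, limma-voom (limma 3.58.1), a replicate block and each library left out.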

Additional observations from a re-analysis of the deposited data

How the results depend on the processing

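The 4 members past 2-fold, with Abca2, Abcb8, Abcb9, Abcb10, Abcc4, Abce1 and Abcg8, passed under all 14 alternatives, which is 11 of 17 called members, and the other 6 lost the call under at least 1. Of the 14 that did not pass, 3 (Abca3, Abcf1 and Abcf2) passed under some alternative. When a library was left out, 6 to 9 members were higher and 5 to 7 lower. Over all genes those fits called 1641 to 2521 higher and 2015 to 2711 lower, of 13607 to 13840 tested. With library totals alone 7 members were higher and 8 lower, against 2087 and 3136 of 13414 genes. With DESeq2 11 members were higher and 7 lower, against 2384 and 2553 of 15418 genes. The main fit called 2475 genes higher and 2785 lower of 13414. No called member changed sign, but 5 that did not pass did. Leaving out a library gave -0.11 to 0.032 for Abca13, -0.15 to 0.058 for Abcb6, -0.056 to 0.093 for Abcc10, -0.19 to 0.14 for Abcg3 and -0.19 to 0.063 for Abcg4, and library totals alone gave -0.012 for Abcc10. The cause was not tested. Deviations of samples with the same replicate number had weak correlations (0.091, 0.0372 and -0.0266), against -0.102 to 0.0617 for samples with different numbers. With 3 libraries per group, these values cannot show whether the numbers pair the libraries. What a number stands for is not stated. The replicate block left 10 higher and 7 lower. By longest transcript in place of merged exons, 9 of the first 10 members by level per length were the same. Members under about 1 CPM rest on few counts, which limits what can be told of Abcb1b, Abcb4 and Abca8b.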

Other observations

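Genes next to the members that changed by more than 2-fold were mostly too low to test or did not move with the member. Herc3, beside Abcg2, averaged 20.3 ± 1.8 CPM in resistant and 20.5 ± 1.5 CPM in sensitive blasts (edgeR adjusted p = 0.889), and Vmn1r29 on its other side had 0 counts. Kif21a, beside Abcd2, was higher in resistant blasts by 0.83 ± 0.23 in log2 (edgeR adjusted p = 0.0164), and Nomo1, beside Abcc8, rose by 0.29 ± 0.05 (edgeR adjusted p = 0.00127), each opposite to the member. Ush1c, on the other side of Abcc8, averaged 0.228 CPM in resistant and 0.412 CPM in sensitive blasts (edgeR adjusted p = 0.177). The neighbours of Abcg1, Umodl1 and Tff3, had 3 and 0 counts in all, and CN725425 beside Abcd2 had 2. Neighbours were looked up after the members' values were seen.

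Among members with a RefSeq window, those tested had windows richer in CpG than those not tested. The other 12 members had no window, Abcd2, Abcc8 and Abcg1 among them, and some members had several. The 29 windows of 22 tested members held a median of 21 CpG pairs (range 1 to 45) and 62.1% held a GC box, while the 16 windows of 16 untested members held a median of 7.5 CpG pairs (range 2 to 40) and 18.8% held one. Abcc2, tested at 58.0 to 72.3 CPM, had 1 CpG pair, and Abca5, with 18 counts in all, had 40. The 45 member windows together held a GC box in 46.7% and CACGTG in 13.3%, against 35.7% and 7.15% of all windows. These are descriptions, with no test.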
